A study of Mus musculus with 12 samples.

Results

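Collagen genes were defined as all genes whose symbol in the deposited expression table is Col, a number, the letter a and a number, and 44 of the 55885 listed genes met this rule. Levels are given as TPM, a measure of transcript abundance that corrects for gene length and sets every heart to 1 common total, so that genes can be compared with each other. For 28 members the level was 1 TPM or more in 3 or more of the hearts, and these were tested, while the other 16 were not. Members were placed by textbook class into 11 fibrillar collagens, 8 basement membrane collagens (the type IV chains with Col15a1 and Col18a1) and 25 other collagens.

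Collagens are secreted as triple helices of 3 alpha chains. Fibrillar chains build the stress-bearing fibres between cardiomyocytes, type IV chains form the sheet that surrounds each cardiomyocyte and vessel, and type VI chains form beaded filaments that join both. In the heart, fibroblasts make most of the fibrillar and type VI collagen, while endothelial and mural cells also make type IV collagen.

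RNA from the hearts of 12 male mice, 8 weeks old and of strain C57BL/6 by the labels (C57BL/6J in the methods), was sequenced, with 3 hearts in each of 4 groups. By the methods, mice of this age were used for the experiments, and hearts were collected after the last cisplatin injection. The methods do not state the age at collection. Saline hearts came from wild-type mice without cisplatin, and CDDP hearts from wild-type mice injected intraperitoneally with cisplatin at 6 mg/kg on days 1, 8 and 15. STING-/- and STING-/-+CDDP hearts came from mice labelled Tmem173-/-, the gene of the innate immune adaptor STING, without and with the same injections. The label of the mice without cisplatin reads untreated, while the methods name the wild-type ones a saline group and state for neither genotype what, if anything, was injected. Wild-type and STING-/- mice came from different suppliers, so genotype and supplier cannot be told apart, and the label names no allele. The labels give each heart as a sample of its own, and p-values measure only the spread between these samples. Sting1 was at 5.62 to 22.1 TPM in the 6 wild-type hearts and at 2.87 to 5.96 TPM in the 6 STING-/- hearts, lower than in every heart of the wild-type group with the same treatment but not absent. The files hold no read counts, so the depth of each heart is unknown, and between 19680 and 21024 genes were above 0.

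The hearts differed in atrial transcripts. Myl7, an atrial myosin light chain, was at 5.68, 6537 and 2.48 TPM in Saline hearts 1, 2 and 3 and at 486, 86.3 and 1778 TPM in the CDDP hearts. It was at 393, 2090 and 1569 TPM in the STING-/- hearts and at 1685, 202 and 46.4 TPM in the STING-/-+CDDP hearts. Saline heart 2 stood far above the other Saline hearts, and 0 of the 4 atrial markers passed in CDDP against Saline. The summed TPM of these 4 was 310.2, 38939 and 339 in the Saline hearts and ranged from 854 to 14621 in the CDDP hearts.

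Promoter sequences of the members are shown for the 5 with the largest falls in CDDP against Saline that were matched in the promoter table of RefSeq (GRCm38.p6) and had no annotated exon in the window. Each is the 250 bases before the gene's RefSeq start, written along the gene's own strand, and for Col15a1 this window ends 149 bases before the start that GENCODE M21 gives. Capitals mark CCAAT (a box bound by NF-Y), TATAAA (the classic core promoter box), GGGCGG (bound by Sp1) and CAGACA (which holds a SMAD core), each on either strand, and no match overlapped another.
Col3a1: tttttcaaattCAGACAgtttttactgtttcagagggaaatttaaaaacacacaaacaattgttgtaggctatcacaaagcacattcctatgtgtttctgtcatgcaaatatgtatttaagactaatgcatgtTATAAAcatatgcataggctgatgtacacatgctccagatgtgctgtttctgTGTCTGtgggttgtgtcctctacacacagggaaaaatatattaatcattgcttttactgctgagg
Col15a1: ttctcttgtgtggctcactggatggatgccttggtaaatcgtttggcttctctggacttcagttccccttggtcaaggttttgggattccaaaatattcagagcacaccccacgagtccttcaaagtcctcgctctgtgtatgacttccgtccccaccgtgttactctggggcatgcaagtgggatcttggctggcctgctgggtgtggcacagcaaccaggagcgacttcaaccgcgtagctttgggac
Col6a3: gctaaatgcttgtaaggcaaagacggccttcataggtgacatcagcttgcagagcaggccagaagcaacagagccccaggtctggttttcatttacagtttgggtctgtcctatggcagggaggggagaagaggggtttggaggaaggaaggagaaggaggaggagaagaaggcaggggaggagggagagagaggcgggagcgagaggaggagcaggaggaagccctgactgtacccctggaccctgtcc
Col5a3: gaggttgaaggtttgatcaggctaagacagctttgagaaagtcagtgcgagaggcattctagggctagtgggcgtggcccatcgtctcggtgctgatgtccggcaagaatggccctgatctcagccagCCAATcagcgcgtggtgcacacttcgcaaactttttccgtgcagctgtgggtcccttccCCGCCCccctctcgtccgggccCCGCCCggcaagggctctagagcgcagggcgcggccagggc
Col5a1: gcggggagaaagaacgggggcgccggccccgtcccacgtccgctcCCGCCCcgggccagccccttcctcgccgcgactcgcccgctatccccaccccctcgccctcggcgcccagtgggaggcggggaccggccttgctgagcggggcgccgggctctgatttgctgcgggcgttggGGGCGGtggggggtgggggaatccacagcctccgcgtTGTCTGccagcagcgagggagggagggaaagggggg

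The window of Col3a1 is chr1:45311288-45311537 on the plus strand, that of Col15a1 is chr4:47207762-47208011 on the plus strand and that of Col6a3 is chr1:90843972-90844221 on the minus strand. Those of Col5a3 and Col5a1 are chr9:20815068-20815317 on the minus strand and chr2:27886175-27886424 on the plus strand. The Col3a1 window holds the TATAAA word once and the CAGACA word once on each strand, whereas Col15a1 and Col6a3, which also fell, hold none of the 4 words in these letters. Over the whole windows of the table, which run to 50 bases after the start, 35 members were matched in 38 windows. GGGCGG was present in 23 of the 38 windows (60.5%), against 35.7% of the 32851 windows in the table. CCAAT was present in 13 (34.2%, against 37.4%), TATAAA in 5 (13.2%, against 13.6%) and CAGACA in 9 (23.7%, against 21.0%). Apart from GGGCGG, the members' windows thus held these words about as often as all windows did. A match says only that the letters are there.

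In wild-type hearts, collagen transcripts were lower with cisplatin in all 3 classes, and of the 6 basement membrane calls only that of Col15a1 held under every alternative run. Of the 28 tested members, 19 passed in CDDP against Saline, all of them lower (limma on log2(TPM + 1), Benjamini-Hochberg adjusted p under 0.05). Over all 13815 tested genes, 18.9% passed in either direction and 10.4% were lower. By class, 6 of 8 tested fibrillar, 6 of 8 basement membrane and 7 of 12 other collagens were lower. The median log2 fold change of the tested members was -1.13, against -0.00324 over all tested genes. Every CDDP heart lay below every Saline heart for 18 of the 28, against 17.1% of all tested genes. In tissue RNA, fewer cells of a type and less RNA per cell cannot be told apart.

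**Figure D1:**
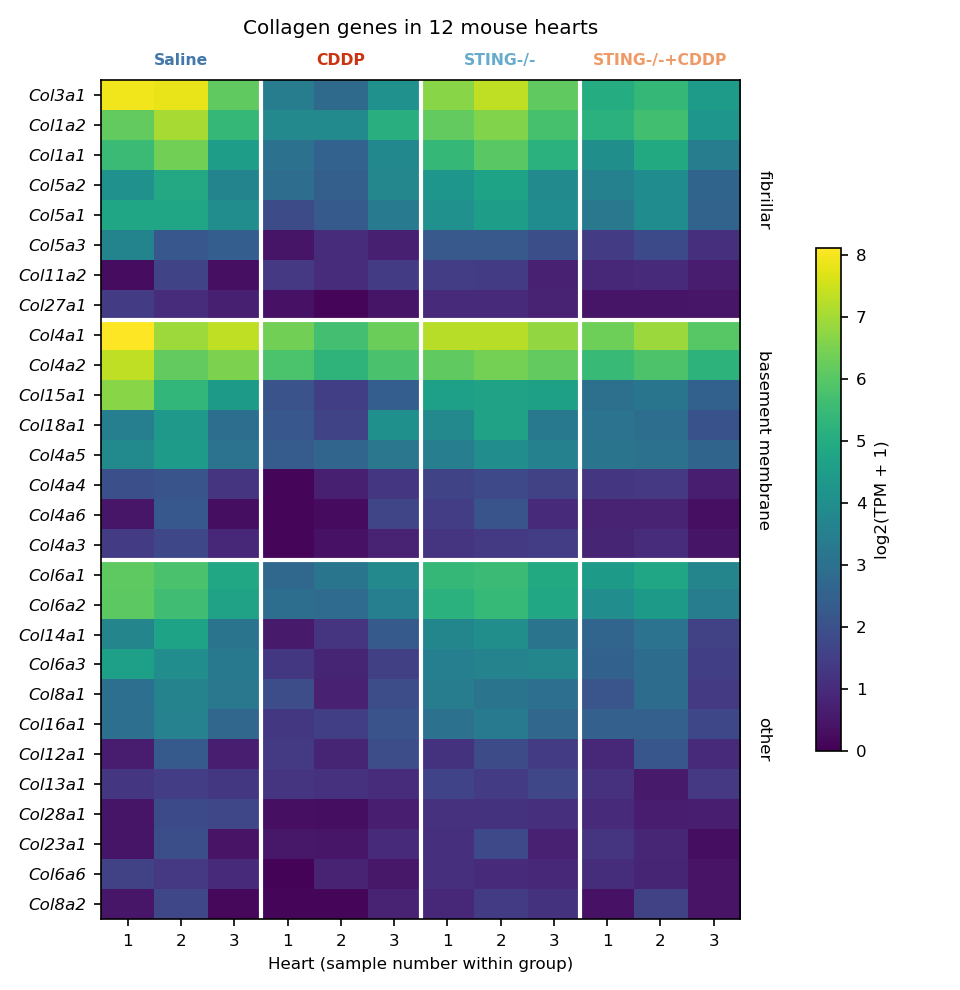
Levels of the 28 tested collagen genes, as log2(TPM + 1) by colour, in the 12 hearts (columns, 3 per group) and ordered within class by mean level (rows). Mean values of log2(TPM + 1) were lower in CDDP than in Saline for 26 of the 28 genes, and Col3a1 differs most on this scale, at 68.4 TPM or more in every Saline and 16.3 TPM or less in every CDDP heart.

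Among the fibrillar collagens, Col3a1, the chain of type III collagen, fell the most. It was at 242, 228 and 68.4 TPM among Saline hearts, against 9.87, 5.91 and 16.3 TPM among CDDP hearts. The groups did not overlap, and the mean of 179.5 ± 96.4 TPM (SD, n = 3) was 16.8-fold lower with cisplatin, at 10.7 ± 5.22 (log2 fold change of -3.85 with a standard error, SE, of 0.50 by limma, adjusted p = 9.67e-04). Col3a1 shares exon sequence with a miRNA gene, Gm47302, that the table lists at up to 114 TPM, so some of its reads may have been counted there.

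The chains of type I collagen, the main fibril of the interstitium, also fell. Col1a1 was at 44.8, 82.5 and 21.8 TPM among Saline hearts, against 7.05, 4.88 and 12.7 TPM among CDDP hearts (limma log2 fold change -2.36, SE 0.50, adjusted p = 0.00879). Col1a2 was at 70.1, 132 and 41.4 TPM and at 13.2, 13.5 and 33.6 TPM (-1.94, SE 0.47, adjusted p = 0.0168). The call of Col1a2 was lost without Saline heart 1, without CDDP heart 1 and in a fit of only the wild-type hearts. Both were highest in Saline heart 2, and neither overlapped between the groups.

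Of the type V chains, which nucleate fibrils and set their width, 2 of 3 passed as lower. Col5a3 was at 11.6, 3.62 and 4.33 TPM among Saline hearts, against 0.38, 1.06 and 0.65 TPM among CDDP hearts, without overlap. Col5a1 (limma log2 fold change -2.003, SE 0.41, adjusted p = 0.00783) and Col5a3 (-2.02, SE 0.34, adjusted p = 0.00309) fell by limma with the same adjustment. Col5a2 did not pass, with -1.19 (SE 0.43, adjusted p = 0.073), and its highest CDDP heart (12.5 TPM) lay above its lowest Saline heart (11.6 TPM). Col27a1, a fibrillar chain known from cartilage, was lower at low level, from 1.13 ± 0.53 to 0.27 ± 0.14 TPM (SD, n = 3 each), a call lost in 5 of 22 alternatives, namely without Saline heart 1 or 2, without CDDP heart 1 or 2 and in the wild-type fit. Col11a2 was the only fibrillar member with a positive value, 0.50 (adjusted p = 0.344), and had 2.20 TPM in Saline heart 2 beside 0.21 and 0.26 TPM in the others. Without Saline heart 2 it passed as higher, at 0.96 (adjusted p = 0.0265).

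Col4a1, the main chain of the basement membrane, had the highest mean level of all members in each group, although in Saline its 185.1 ± 79.8 TPM (SD, n = 3) did not differ from Col3a1 beyond the spread. Both main type IV chains fell. Col4a1 was at 275, 121 and 159.6 TPM among Saline hearts, against 83.2, 50.5 and 77.2 TPM among CDDP hearts (limma log2 fold change -1.33, SE 0.31, adjusted p = 0.0137). Its partner Col4a2 was at 161, 70.3 and 90.1 TPM and at 55.2, 37.9 and 54.2 TPM (-1.04, SE 0.28, adjusted p = 0.0238). Saline heart 1 was the highest for both, and no CDDP heart reached a Saline heart. Without Saline heart 1 neither call held, nor in the fit of only the wild-type hearts, and that of Col4a2 was also lost without CDDP heart 2 and with no filter.

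The network chains of specialised membranes, Col4a3, Col4a4 and Col4a5, passed at -0.92, -1.07 and -1.06, and Col4a6 did not, at -0.32 (adjusted p = 0.718). Col4a3 and Col4a4 were at no more than 3.35 TPM in any heart, and Col4a4 and Col4a5 overlapped between the groups. These calls were among the least stable: Col4a3 lost its own in 6 of 22 alternatives, Col4a4 in 11 of 22 and Col4a5 in 10 of 23. All of them were lost without Saline heart 1 or 2, without CDDP heart 1 or 2, with no filter and in the wild-type fit, and Col4a4 and Col4a5 also without some STING-/- or STING-/-+CDDP hearts. Of the multiplexins, whose C-terminal fragments are known as anti-angiogenic peptides, Col15a1 had the largest fall after Col3a1 on the log2(TPM + 1) scale. It was at 99.8, 40.1 and 20.3 TPM among Saline hearts, against 3.22, 1.85 and 4.34 TPM among CDDP hearts, with no overlap (limma log2 fold change -3.47, SE 0.44, adjusted p = 9.34e-04). Its mean TPM was 17-fold lower against 16.8-fold for Col3a1, so that the order of the pair turned on mean TPM. Col18a1, the source of endostatin, was at 10.3, 19.9 and 6.61 TPM and at 3.58, 2.17 and 15.9 TPM, and the groups overlapped through CDDP heart 3 (-0.96, SE 0.60, adjusted p = 0.285).

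Type VI collagen, the beaded filament around interstitial cells, fell in its 3 main chains. Col6a1 was at 67.9, 53.5 and 28.4 TPM among Saline hearts, against 5.67, 7.85 and 12.9 TPM among CDDP hearts (limma log2 fold change -2.36, SE 0.37, adjusted p = 0.00229). Col6a2 was at 66.1, 48.6 and 24.7 TPM and at 6.56, 6.18 and 10.4 TPM (-2.37, adjusted p = 0.00162). Col6a3 was at 22.7, 14.6 and 8.76 TPM and at 1.47, 0.80 and 1.92 TPM (-2.71, SE 0.37, adjusted p = 0.00114), an 11-fold lower mean. All of these chains were separate between the groups. Col6a6, another chain of this type, fell from 1.48 ± 0.52 to 0.42 ± 0.36 TPM (SD, n = 3 each, adjusted p = 0.0402 by limma), but this call was lost in 12 of 22 alternatives, among them the fits without Saline heart 1 or 2, CDDP heart 1 or 3, any STING-/- heart or STING-/-+CDDP heart 2.

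Of the collagens that decorate fibrils, Col14a1 had 11.9, 25.3 and 7.71 TPM among Saline hearts, against 0.49, 1.37 and 3.87 TPM among CDDP hearts. It (log2 fold change -2.48, adjusted p = 0.00807) and Col16a1 (-1.46, adjusted p = 0.00866) fell by limma, while Col12a1 was at 1.70 ± 1.95 TPM without and 1.71 ± 0.99 TPM with cisplatin (SD, n = 3 each, 0.16, adjusted p = 0.845). The value turned negative without Saline heart 1, without Saline heart 3 or without CDDP heart 3. Col8a1, a short-chain network collagen of vessels, was at 6.71, 11.4 and 8.45 TPM and at 2.76, 0.66 and 2.76 TPM, and fell by 1.76 on the log2 scale (SE 0.39, adjusted p = 0.0108). The transmembrane collagen Col13a1 was at 1.45 to 1.78 TPM in the Saline and 1.02 to 1.35 TPM in the CDDP hearts, separate but not past the test (-0.23, adjusted p = 0.471). The remaining members, Col8a2, Col23a1 and Col28a1, had values of -0.45, -0.28 and -0.89 and adjusted p from 0.0706 to 0.677.

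Among the Saline hearts, the members that did not pass were highest in heart 2. For all 9 of them the highest Saline value was that of heart 2, the heart with 6537 TPM of Myl7, as it was for 8 of the 19 that passed. Col4a6, for example, was at 0.41, 3.73 and 0.24 TPM among Saline hearts and 0.09, 0.19 and 2.27 TPM among CDDP hearts, and Col23a1 was at 0.37, 2.86 and 0.34 TPM and at 0.45, 0.39 and 0.95 TPM. For Col28a1 (0.36, 2.53 and 2.32 TPM) and Col13a1 (1.45, 1.78 and 1.51 TPM), Saline heart 2 was the highest by little. How often heart 2 was the highest over all tested genes was not counted. Whether atrial tissue brought the transcripts of these 9 members was not tested. Without Saline heart 2, 15 members passed, 14 lower and Col11a2 higher, beside 18.4% of all tested genes. The mean of the 4 atrial markers as a term in the model was an alternative chosen after seeing the data. With this term 21 members passed, all lower, beside 20.8% of all tested genes. The count rested more on Saline heart 1, without which 12 passed, and a fit of only the 6 wild-type hearts left 11, in both cases all lower. Over all tested genes the share that passed went from 18.9% to 8.98% and to 5.95% in these fits, against 42.9% and 39.3% of the members.

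**Figure D2:**
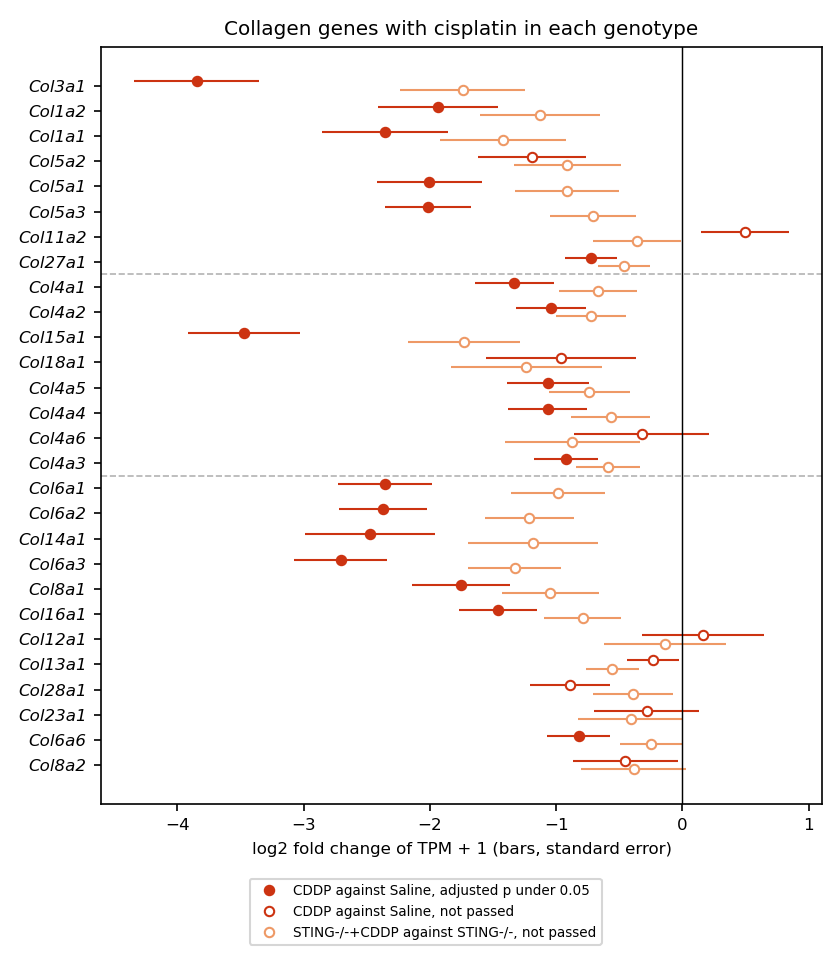
Log2 fold change of TPM + 1 for the 28 tested collagen genes (rows, by class and level) in CDDP against Saline and in STING-/-+CDDP against STING-/-, with standard errors as bars and filled points for an adjusted p under 0.05. All 28 points of the STING-/- comparison lie below 0 and none is filled, and 26 of the 28 wild-type points lie below 0.

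In STING-/- mice every member had a negative value with cisplatin, but none passed. STING-/-+CDDP against STING-/- gave 0 of 28 by limma (0.934% of all tested genes passed), with an unadjusted p under 0.05 for 16 (57.1%, against 13.5% of all tested genes), all with negative values. The median was -0.76, against -0.11 over all tested genes. Every STING-/-+CDDP heart lay below every STING-/- heart for 20 of the 28, against 16.9% of all tested genes.

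Col3a1 was at 99.99, 159 and 68.7 TPM in the STING-/- hearts and at 31.5, 40.9 and 21.2 TPM in the STING-/-+CDDP hearts. The groups did not overlap, and the mean was 3.5-fold lower (limma log2 fold change -1.74, SE 0.50, adjusted p = 0.14). Col15a1 was at 23.0, 24.7 and 23.1 TPM and at 7.01, 7.91 and 4.68 TPM (-1.73, SE 0.44, adjusted p = 0.101), a narrow range within each group. It passed, at adjusted p = 0.0131, when only these 6 hearts were fitted, with arrayWeights (0.0465) and without Saline heart 1 or Saline heart 3.

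Col1a1 was at 41.0, 65.1 and 34.8 TPM without and at 15.3, 29.3 and 9.56 TPM with cisplatin, and Col6a3 at 10.3, 11.4 and 12.2 TPM and at 4.69, 6.27 and 1.84 TPM. Neither overlapped. The type VI chains had log2 fold changes of -0.98 (Col6a1), -1.21 (Col6a2) and -1.33 (Col6a3), and the type I chains of -1.42 (Col1a1) and -1.13 (Col1a2), with adjusted p from 0.128 to 0.324. Col8a1 was at -1.05, Col5a1 and Col5a2 both at -0.91, and Col4a1 and Col4a2 at -0.67 and -0.73. Col18a1, at -1.24 (adjusted p = 0.395), was at 13.2, 24.4 and 8.70 TPM in the STING-/- hearts and at 7.44, 6.68 and 3.13 TPM with cisplatin, without overlap. Col4a1, at 149, 148 and 109 TPM and at 79.5, 117 and 63.5 TPM, did overlap.

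Averaged over both genotypes, 19 of the 28 members were lower with cisplatin and 0 were higher by limma. This average shares its hearts with the comparisons above. Over all tested genes 19.8% passed in either direction and 12.6% were lower. The medians were -1.03 for the members and -0.0498 for all tested genes. The classes held 7 of 8 tested fibrillar, 6 of 8 basement membrane and 6 of 12 other collagens. Against the wild-type comparison, Col5a2 now passed (limma log2 fold change -1.05, SE 0.30, adjusted p = 0.0314), a call lost in 9 of 22 alternatives, among them the fits without Saline heart 1 or 2, CDDP heart 1 or 2, STING-/- heart 1 or 2 and STING-/-+CDDP heart 1 or 3, and Col6a6 did not (-0.53, adjusted p = 0.053). Values were largest for Col3a1 (-2.79, SE 0.35) and Col15a1 (-2.60, SE 0.31), then Col6a3 (-2.02), Col1a1 (-1.89), Col14a1 (-1.83), Col6a2 (-1.79) and Col6a1 (-1.67). Col1a2 was at -1.53, Col5a1 at -1.46, Col8a1 at -1.40, Col4a1 at -1.0 and Col4a2 at -0.88. Of the 2 multiplexins, Col18a1 did not pass (-1.10, adjusted p = 0.0904).

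The levels of the 2 cisplatin groups were also compared directly. In STING-/-+CDDP against CDDP, 0 of the 28 passed by limma (1.22% of all tested genes), 4 had an unadjusted p under 0.05 (14.3%, against 19.8% of all tested genes), and 23 had a positive value, with a median of 0.37 against -0.0947 over all tested genes. Every STING-/-+CDDP heart lay above every CDDP heart for Col3a1, Col15a1 and Col5a3, that is 3 of 28, beside 7.12% of all tested genes. Col3a1 was at 21.2 to 40.9 TPM against 5.91 to 16.3 TPM, a mean 2.92 times as high (limma log2 fold change 1.51, SE 0.50, adjusted p = 0.134). Col6a1 (1.08, adjusted p = 0.149), Col6a3 (1.059, adjusted p = 0.15), Col1a1 (1.00), Col15a1 (0.89), Col6a2 (0.85), Col1a2 (0.77), Col5a1 (0.75), Col5a3 (0.72) and Col8a1 (0.61) had positive values that did not pass. Type IV chains were nearer to 0, with 0.29 for Col4a1 and -0.12 for Col4a2, as were Col5a2 (0.34) and Col18a1 (0.04). Col6a1 alone passed under quantile normalization (adjusted p = 0.049) and median-of-ratios scaling (0.0451). That is 3.57% of the members, beside 4.81% and 4.74% of all tested genes in these settings.

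The difference between the cisplatin changes of the 2 genotypes was tested as an interaction. It passed for 0 of the 28 members by limma and for 0.00724% of all tested genes, which is 1 gene. Of the members, 6 had an unadjusted p under 0.05 (21.4%, against 11.7% of all tested genes), namely Col3a1 (2.11, SE 0.70, adjusted p = 0.344), Col15a1 (1.74), Col6a3 (1.38), Col6a1 (1.37), Col5a3 (1.31) and Col6a2 (1.16), all with the smaller fall in STING-/- hearts. No difference in the fall between genotypes was shown, nor was an equal fall. CDDP and STING-/-+CDDP hearts enter both this comparison and the one before.

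Without cisplatin, STING-/- against Saline gave 0 of 28 members by limma (0.0724% of all tested genes passed), and 0 had an unadjusted p under 0.05. Values ran from -0.86 (Col15a1, SE 0.44) to 0.49 (Col4a6), with a median of -0.12. Col3a1 was at -0.59 (SE 0.50). Its STING-/- hearts, at 68.7 to 159 TPM, lay within the range of the Saline hearts. The CDDP and the STING-/- comparison share the Saline hearts.

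**Figure D3:**
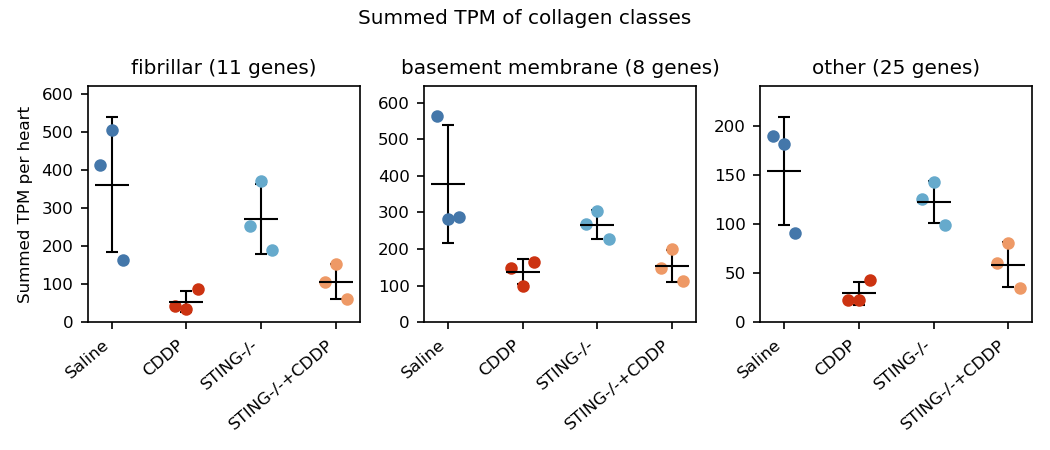
Summed TPM of the collagen genes of each class in each heart (points), with the group mean (line) and SD (bars), each axis starting at 0. The fibrillar sum was 360.8 ± 177 in the Saline group and 54.5 ± 28.5 in the CDDP group, and the basement membrane sum 377 ± 161 and 138 ± 34.3.

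The make-up of the collagen transcripts differed between hearts with and without cisplatin. All 44 members together were at 1168, 969.8 and 541 TPM among Saline hearts, against 214, 157 and 294 TPM among CDDP hearts, and at 647, 819 and 516 TPM and 312, 434 and 211 TPM in the STING-/- and STING-/-+CDDP hearts. Fibrillar members made up 35.4%, 52.2% and 30.2% of this sum without and 19.4%, 22.3% and 29.7% with cisplatin in wild-type mice. Type IV chains took a larger share, from 38.8%, 22.9% and 48.1% to 66.8%, 60.5% and 48.9%, although their own sum was lower, and CDDP heart 3 lay just above the highest Saline heart. In STING-/- mice the type IV share was 36.0%, 31.2% and 37.8% without and 42.6%, 42.6% and 50.5% with cisplatin. The fibrillar and type IV shares did not overlap between hearts with and without cisplatin in either genotype. They are a description of these sums with no test, in which Col4a1 and Col4a2 carry most of the type IV part.

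Chains were also compared as ratios of TPM within a heart, which do not depend on the scaling between hearts. Of the 25 tests, 5 ratios in 5 comparisons, none passed after adjustment, and 3 hearts against 3 cannot give an exact two-sided p below 0.1. Col1a1/Col3a1 was at 0.185, 0.361 and 0.318 among Saline hearts, against 0.714, 0.826 and 0.779 among CDDP hearts, with no overlap (log2 difference 1.48, exact permutation p = 0.1, adjusted p = 0.278). It was at 0.410, 0.409 and 0.506 in the STING-/- hearts and at 0.485, 0.717 and 0.452 with cisplatin, where the groups overlapped. Without cisplatin, every STING-/- heart also lay above every Saline heart in this ratio (log2 difference 0.67, exact permutation p = 0.1, adjusted p = 0.278). Permuted within genotype, the mean cisplatin change of this ratio was 0.89 (exact p = 0.015, adjusted p = 0.25).

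Col1a1/Col1a2, the chains of type I collagen, went the other way, with a mean cisplatin change of -0.42 (exact permutation p = 0.02, adjusted p = 0.25). The ratio was 0.597 ± 0.062 in the Saline group, 0.424 ± 0.095 in the CDDP group, 0.644 ± 0.059 in the STING-/- group and 0.517 ± 0.082 in the STING-/-+CDDP group (SD, n = 3 each). Col4a1/Col4a2 was the tightest ratio among Saline hearts, at 1.71, 1.72 and 1.77, and lower in the CDDP hearts at 1.51, 1.33 and 1.42. In the STING-/- hearts it was at 2.15, 1.75 and 1.56 and with cisplatin at 1.86, 2.07 and 1.74. Col6a1/Col6a2 stayed between 0.864 and 1.36 in all 12 hearts, and its mean cisplatin change was 0.14 (exact permutation p = 0.215). In STING-/- mice it did not overlap, at 1.16, 1.08 and 1.06 without and 1.36, 1.33 and 1.23 with cisplatin (log2 difference 0.25, exact permutation p = 0.1). Col5a1/Col5a2 was 1.28 ± 0.37 in the Saline group and 0.678 ± 0.231 in the CDDP group (log2 difference -0.94, exact permutation p = 0.1).

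**Figure D4:**
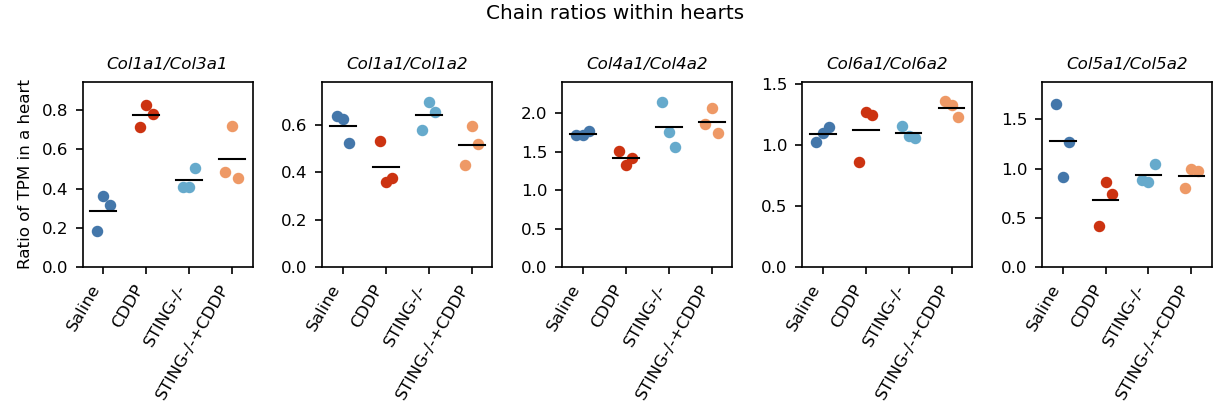
Ratio of the TPM of paired collagen chains in each heart (points) with the group mean (line), each axis starting at 0. Col1a1/Col3a1 lies at 0.714 to 0.826 for CDDP and at 0.185 to 0.361 for Saline, while Col6a1/Col6a2 overlaps between CDDP and Saline.

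Several partner chains lie next to each other in the genome (GENCODE M21, GRCm38). Col4a1 (chr8:11198423-11312826, minus strand) and Col4a2 (chr8:11312805-11449287, plus strand) run apart from starts that overlap by 22 bases. Col4a4 and Col4a3 are set head to head on chromosome 1 with 71 bases between them, and Col4a6 and Col4a5 on chromosome X with 1308 bases between them. In CDDP against Saline both members of the first and of the second pair fell, while in the third Col4a5 fell and Col4a6 did not pass. Col3a1 (chr1:45311538-45349706) lies tail to tail with Col5a2 at a distance of 24614 bases, and these were the fibrillar chain with the largest fall and one that did not pass in wild-type hearts. Counting of Col4a1 and Col4a2 over the shared bases without strand could mix their reads, and whether strand was used is not given in the sources used here.

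Of the 16 members that were not tested, 15 stayed under 1 TPM in every heart and 13 were of the other class. Col26a1 was the exception, at 2.06 TPM in Saline heart 1 and at no more than 0.39 TPM elsewhere. The cartilage collagens Col2a1, Col9a1 and Col11a1 were at no more than 0.45, 0.60 and 0.54 TPM, and the hypertrophic cartilage collagen Col10a1 at no more than 0.03 TPM. Anchoring fibril collagen Col7a1 was at no more than 0.38 TPM. Whether these changed cannot be said at such levels.

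Genes that fold, modify and cross-link collagen had calls in both directions, the higher ones at about the share of all tested genes. Of 31 tested genes of collagen biosynthesis, 9 passed in CDDP against Saline, 6 lower and 3 higher. Over all tested genes 10.4% were lower and 8.52% higher. In the mean cisplatin change 10 passed, 8 lower and 2 higher, beside 12.6% lower and 7.28% higher of all tested genes. The count in CDDP against Saline ran from 4 (1 higher, without Saline heart 1) to 15 (3 higher, with the atrial term) over the alternatives. Without CDDP heart 3 it was 10 with 1 higher. Serpinh1, the collagen chaperone HSP47, was at 260.4, 198 and 148 TPM among Saline hearts, against 75.5, 72.3 and 106 TPM among CDDP hearts (log2 fold change -1.23, adjusted p = 0.00771 by limma). Sparc, a collagen-binding matricellular protein, fell by 1.75 (adjusted p = 0.00159), and so did Loxl2 (-1.40), Pcolce, an enhancer of procollagen processing (-1.35), Colgalt2 (-1.16) and the lysyl hydroxylase Plod1 (-0.72).

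Lox, the lysyl oxidase that cross-links fibrils, was one of the 3 that rose. It was at 2.34, 6.70 and 4.22 TPM among Saline hearts, against 13.6, 11.3 and 19.3 TPM among CDDP hearts, with no overlap (limma log2 fold change 1.59, SE 0.40, adjusted p = 0.0181). In STING-/- hearts it was at 4.94, 9.14 and 4.47 TPM and with cisplatin at 9.73, 9.54 and 3.53 TPM, which overlapped. The other 2 were Tmem38b, a calcium-handling channel of the endoplasmic reticulum (1.24), and Mia3, which packs procollagen for export (0.76). In the mean cisplatin change P4ha1 and Adamts2 passed as well, at -0.71 and -0.98.

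Among 14 tested genes of collagen breakdown, 4 passed in CDDP against Saline, beside 18.9% of all tested genes. Mmp15 (-2.26), Pepd, the dipeptidase that frees proline (-1.30), and Fap (-0.95) were lower, and Timp1, an inhibitor of matrix metalloproteinases, was higher (2.22, SE 0.69, adjusted p = 0.0441 by limma). No gene of this list was higher in 9 of 23 alternatives, so that Timp1 lost its call without Saline heart 1 or 3, without STING-/- heart 1, without any STING-/-+CDDP heart, with the atrial term, with no filter and in the wild-type fit. Timp1 was at 5.29, 24.3 and 5.94 TPM among Saline hearts, against 70.7, 28.4 and 51.9 TPM among CDDP hearts, but at 101.4 TPM in STING-/- heart 2, which had no cisplatin. In the mean cisplatin change Mrc2, a receptor that takes up collagen, was also lower (-0.65) and Timp1 did not pass (0.90, adjusted p = 0.219).

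Of 7 tested collagen receptors, 3 passed in CDDP against Saline, all lower, beside 10.4% lower of all tested genes. They were the integrin subunits Itga1 (-0.97) and Itga11 (-1.12) and the inhibitory receptor Lair1 (-1.41). In the mean cisplatin change the shared beta subunit Itgb1 joined them (-0.33). Few regulators of collagen transcription passed. Of 19 tested, 0 passed in the mean cisplatin change (0 to 3 over the alternatives, all higher). In CDDP against Saline 1 passed, the NF-Y subunit Nfyb, which was higher (0.63, adjusted p = 0.0382 by limma). With 18.9% of all tested genes passing, this was a low count in CDDP against Saline, and it was 0 in 12 of 23 alternatives, among them the fits without Saline heart 1 or 3, CDDP heart 1 or 3, any STING-/- heart or STING-/-+CDDP heart 2, and 3 under quantile and median-of-ratios scaling. None of the 31, 14, 7 and 19 genes of these lists passed in STING-/-+CDDP against CDDP or in STING-/-+CDDP against STING-/-.

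Markers of the cells that make collagen did not all fall with it. Of 8 tested fibroblast markers, 2 passed in CDDP against Saline, Lum (-2.12, adjusted p = 0.0116) and Pi16 (-2.02, adjusted p = 0.0113), both lower. Pdgfra, the receptor that defines cardiac fibroblasts, was at 13.8, 23.2 and 15.6 TPM among Saline hearts, against 13.7, 13.1 and 21.6 TPM among CDDP hearts (-0.11, SE 0.31, adjusted p = 0.832 by limma). Tcf21 was at -0.20 (adjusted p = 0.754), and Dcn, an abundant fibroblast proteoglycan, at 0.73 (adjusted p = 0.23). The others, Gsn, Mfap5 and Dpt, were at -0.27, -0.53 and -0.91 (adjusted p from 0.193 to 0.736), and the median of the 8 was -0.40. The summed TPM of the 8 markers was 1722 to 4696 without and 1686 to 4784 with cisplatin in wild-type hearts. Of 4 tested markers of activated fibroblasts, Postn (-1.84, adjusted p = 0.049) and Fap were lower, and the others did not pass. The summed TPM of the activated list was 157 to 328.6 in Saline and 54.38 to 232.8 in CDDP hearts, which overlapped through CDDP heart 3. Over all tested genes 10.4% passed as lower in CDDP against Saline.

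Markers of vessels and of other cells also moved in CDDP against Saline, where 10.4% of all tested genes were lower and 8.52% higher. Of 5 endothelial markers, Kdr (-1.39), Cdh5 (-0.998), Tie1 (-0.80) and Egfl7 (-0.68) passed as lower, and Pecam1 was at 0.03 (adjusted p = 0.937). Rgs5 (-1.21), Abcc9 (-1.07) and Cspg4 (-0.95) passed among 5 mural markers, all lower, and 0 of 3 smooth muscle markers passed. The summed TPM was 485 to 635 in Saline and 339.9 to 419.7 in CDDP hearts for the endothelial list, and 219.5 to 371 and 107 to 182 for the mural list. Of 3 macrophage markers, Csf1r (-1.81) and Adgre1 (-1.55) were lower. Among 5 cardiomyocyte markers Tnnt2 was higher (0.56) and Actc1 lower (-3.55). All 5 red blood cell genes were lower, with a summed TPM that ran from 4146 to 9317 in Saline, from 42.0 to 1271 in CDDP and from 264 to 1465 in STING-/- hearts. The part of any of these cells in the collagen values was not tested. The median log2 fold change over all tested genes lay between -0.0241 and 0.0747 in 6 bins of gene length, and the tested members are 3162 to 11511 bases long. The epicardial and fat markers had 0 of 3 passing each, and the proliferation list and those of cartilage and skeletal muscle had 1 tested gene each, of which the proliferation marker was lower (-1.59).

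**Figure D5:**
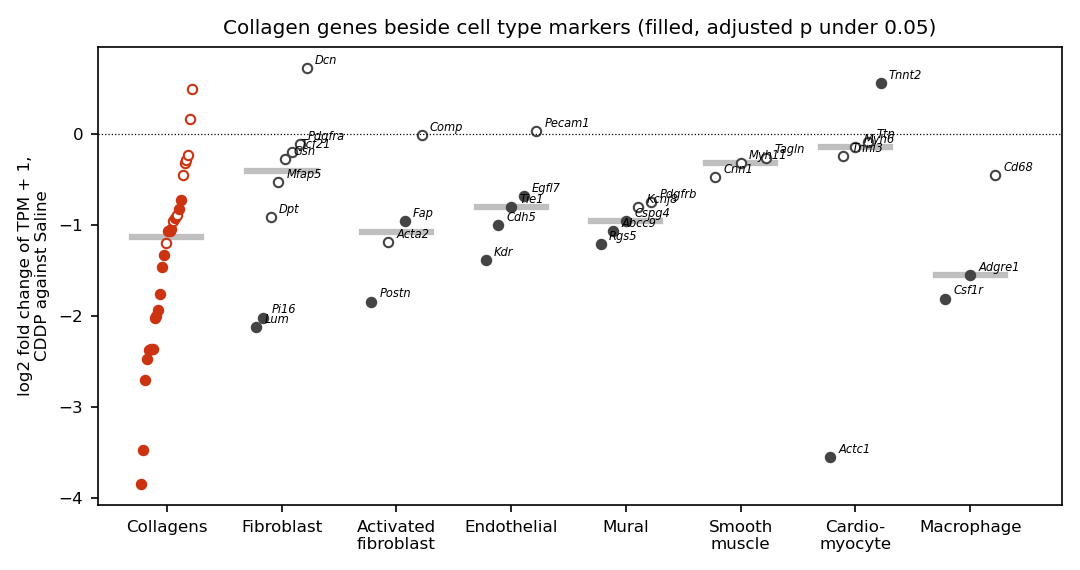
Log2 fold change of TPM + 1 in CDDP against Saline for the 28 tested collagen genes and for tested markers of 7 cell types (points with names for markers, grey bars for list medians, filled for an adjusted p under 0.05). Collagens run from -3.85 to 0.50 (median -1.13). Of 8 fibroblast markers (median -0.40), Lum and Pi16 are filled and lie lowest. The other 6 are open and lie between -0.91 and 0.73.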

How the data were processed

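Heart RNA of 12 mice in 4 groups was analysed, with groups taken from the genotype and treatment labels. Deposited values are the authors' TPM for every gene in each heart, with 2 decimals and the gene lengths. Their processing notes name fastp, HISAT and RSEM and the build GRCm38.p5, with no versions. Columns of group means were not used. TPM gives no read counts, so count models, intervals and detection floors were not used.

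Values were taken as log2(TPM + 1), which understates the change of low genes. The 13815 genes that reached 1 TPM in 3 or more hearts were fitted with limma 3.58.1 in R 4.3.3, with 1 coefficient per group, all 12 hearts (8 residual degrees of freedom) and eBayes with a trend. Tests were two-sided, and p-values were adjusted by Benjamini-Hochberg over all tested genes, with a threshold of 0.05. Log2 ratios of chains were compared by exact permutation tests, adjusted over 25 tests. Both procedures were tested on simulated data. Members not tested were given by range. Named genes were each member that passed and 13 fixed members, and from the related lists those that passed with cisplatin; Sting1, Gm47302, Col11a2, Col12a1, Col13a1, Lox, cell markers and low members outside this rule were picked with their values in view. The members and lists were chosen with earlier results of these data known. Positions came from GENCODE M21, and promoters from RefSeq, where 9 members had no match. The alternatives were another pseudocount, filters, scalings, weights and sets of hearts, a replicate block and each heart left out. Plots were made in matplotlib 3.10.9 (Python 3.11.15).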

Additional observations from a re-analysis of the deposited data

How the results depend on the processing

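In CDDP against Saline the 19 lower members became 11 in a fit of only the compared hearts and 12 to 20 with 1 heart left out, the low count without Saline heart 1, while the share of all tested genes that passed went from 18.9% to 5.95% and 8.98%. With no filter 14 of 44 passed (31.8%, against 7.52% of all tested genes). With a TPM minimum of 5 it was 14 of 16 (87.5%, against 21.9%), and with a fold threshold of 1 on the log2 scale 16. Of the 19, 11 passed under every alternative that tested them (the others were Col1a2, Col27a1, Col6a6 and the type IV chains Col4a1 to Col4a5), and 17 of the 19 of the mean cisplatin change, where counts ran from 15 to 22 (14 with the fold threshold). None of these called values changed direction. The atrial term, chosen after seeing the data, gave 21 and 22, beside 20.8% and 25.8% of all tested genes. In the mean cisplatin change the share of all tested genes ran from 8.24% with no filter to 28.8% under quantile normalization. STING-/-+CDDP against CDDP gave 1 under quantile normalization and 1 under median-of-ratios scaling. Each is 3.57% of the tested members, beside 4.81% and 4.74% of all tested genes. STING-/-+CDDP against STING-/- gave 1 with arrayWeights, 1 in the fit of only the compared hearts, and 0 to 1 with 1 heart left out. The first 2 are each 3.57% of the tested members, beside 4.44% and 1.48% of all tested genes. Depth is unknown, and members under 1 TPM were not tested. Quantile and median-of-ratios scaling moved the median of all tested genes in STING-/-+CDDP against CDDP from -0.0947 to 0.0193 and 0.00313, and in STING-/-+CDDP against STING-/- from -0.107 to 0.0139 and 0.00714. In CDDP against Saline, 13 passed without CDDP heart 1 and 14 without CDDP heart 2, beside 15.6% and 16.9% of all tested genes.

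Values near 0 reversed in some settings. Col12a1 in CDDP against Saline was -0.25 with the atrial term and ranged from -0.123 to 0.714 with 1 heart left out. In STING-/-+CDDP against CDDP, Col18a1 ranged from -0.449 to 0.758 and Col4a2 from -0.29 to 0.0247 with 1 heart left out, and Col4a2 was 0.11 with arrayWeights, 0.0363 under quantile normalization and 4.9e-04 under median-of-ratios scaling. With 1 heart left out the log2 difference of Col4a1/Col4a2 ranged from -0.0695 to 0.161 in STING-/- against Saline and from -0.0414 to 0.189 in STING-/-+CDDP against STING-/-. That of Col6a1/Col6a2 ranged from -0.07 to 0.208 in CDDP against Saline and from -0.0288 to 0.0515 in STING-/- against Saline, and that of Col5a1/Col5a2 from -0.0717 to 0.0889 in STING-/-+CDDP against STING-/-. The cause of these reversals was not tested.

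With the replicate number as a block, 17 members passed in CDDP against Saline and 19 in the mean cisplatin change. No pairing by number was seen. Of 18 pairs of hearts with the same number, 4 had residuals that correlated above 0.1 (range -0.33 to 0.26). Hearts with different numbers reached 0.43, so this check cannot exclude pairing. The ratios were also tested on differences between hearts of the same number and genotype with and without cisplatin. By an exact sign-flip test of these, the mean cisplatin change of Col1a1/Col1a2 had p = 0.0312 and that of Col1a1/Col3a1 p = 0.0625. The first value is the lowest that this exact test can give with so few differences, and neither was adjusted over the 25 tests.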
